A study of Mus musculus with 4 samples.

Results

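The 10 genes Jag1, Jag2, Dll1, Notch1, Notch2, Notch3, Hes1, Hey1, Hey2 and Heyl are ligands, receptors and targets of the Notch pathway, and their RNA levels were followed across the cell types of the adult mouse stria vascularis (SV). They were chosen by symbol as named pathway genes, with no measured value in the rule but with earlier results of these data known. All 10 were found among the 27873 genes that the 4 libraries share. The SV is the vascularised epithelium of the cochlear lateral wall, and its marginal, intermediate and basal cells generate the endocochlear potential, with spindle and root cells at its borders. SV from CBA/J mice at postnatal day (P) 30 was profiled by droplet single-cell RNA-Seq (scRNA-Seq) in 3 captures of whole cells and by single-nucleus RNA-Seq (snRNA-Seq) in 1 capture of nuclei. The labels give no engineered allele and no treatment, and the study compared cell types within one tissue at one age. Each capture pooled the SV of several mice, about 12 for cells and about 10 for nuclei according to the labels, and the methods give different numbers, so the spread between captures is a spread between pools and may be partly technical.

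Notch signalling passes between touching cells. Ligands of the Jagged and Delta-like families on one cell bind Notch receptors on its neighbour, the receptor is cut by ADAM proteases and then by gamma-secretase, and its freed intracellular domain joins RBPJ and Mastermind proteins on DNA. The best known direct targets are the Hes and Hey genes, which encode basic helix-loop-helix repressors. In the inner ear the pathway is known for setting the pattern of hair cells and supporting cells during development, and in blood vessels Notch3 and Heyl are known from pericytes and smooth muscle cells.

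The 3 cell captures held 392, 1358 and 1580 barcodes and the nucleus capture held 11057, of which 377, 1314, 1461 and 9723 were kept. Median depth was 3878 to 5054 unique molecular identifiers (UMIs) per cell barcode and 1561 per nucleus barcode, and pairs of libraries shared 0 to 32 barcode sequences. Clusters were rebuilt without the Notch genes among the variable genes and named from marker genes, which gave 89 marginal, 1002 intermediate, 123 basal and 30 spindle/root cells and 2590, 1474, 605 and 205 nuclei of these types. The rebuilt names may differ from those of the study, and 1747 cells and 3793 nuclei stayed unnamed. Among the 4 types, the markers of each were highest in their own type in every library, but they were not confined to it. In cells, intermediate markers stood at 7833 to 10075 CPM (UMIs per 1000000 UMIs of the same capture and type) in marginal cells and at 7693 to 11533 CPM in basal cells. In marginal cells of captures 1 and 2 this was above the level of their own 7 markers, which was 8167 to 8881 CPM over the 3 captures, and in basal cells of all 3 captures it was above their own 5 markers, at 3730 to 4310 CPM. Both excesses lay mainly in 1 cluster of each type. A cluster of 58 marginal cells held intermediate markers at 11283 CPM and a cluster of 54 basal cells at 13991 CPM, so values without these 2 clusters are given beside the calls that were lost without them. In nuclei the intermediate markers were at 1461 CPM in marginal and 3649 CPM in basal nuclei, and basal nuclei also held marginal markers at 3321 CPM, both above their own markers at 1339 CPM. Capture 1 held 4 spindle/root cells, under the minimum of 5 for a sum, so tests used 11 sums of UMIs over capture and type, with 2 sums for spindle/root cells and 3 for each other type.

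Heyl was higher in marginal cells than in any other sum tested, and it was highest in marginal nuclei. Notch2 was highest in basal cells and Notch1 was higher in basal than in marginal or intermediate cells. The ligand Jag1 had its highest level in spindle/root cells and nuclei. Only 4 of the 10 genes, Notch1, Notch2, Hes1 and Heyl, passed the filter on low counts, and the other 6 are described by their UMIs. Contrasts set each type beside the average of the remaining 3. The test was edgeR's quasi-likelihood test with capture as a block, and p-values were adjusted by Benjamini-Hochberg over 6528 genes. At an adjusted p under 0.05, marginal cells had 1 of these 4 genes higher and 3 lower, where 24.6% of all genes tested were called (14.8% higher and 9.82% lower). Intermediate cells had 1 lower against a background of 36.0% (18.2% higher and 17.7% lower). Basal cells had 3 higher and 1 lower against 28.0% (17.1% higher and 11.0% lower), and spindle/root cells had 1 higher against 25.0% (14.1% higher and 10.9% lower). A gene that passes the filter through the type where it is high is bound to differ somewhere, so the counts are given as a description.

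**Figure D1:**
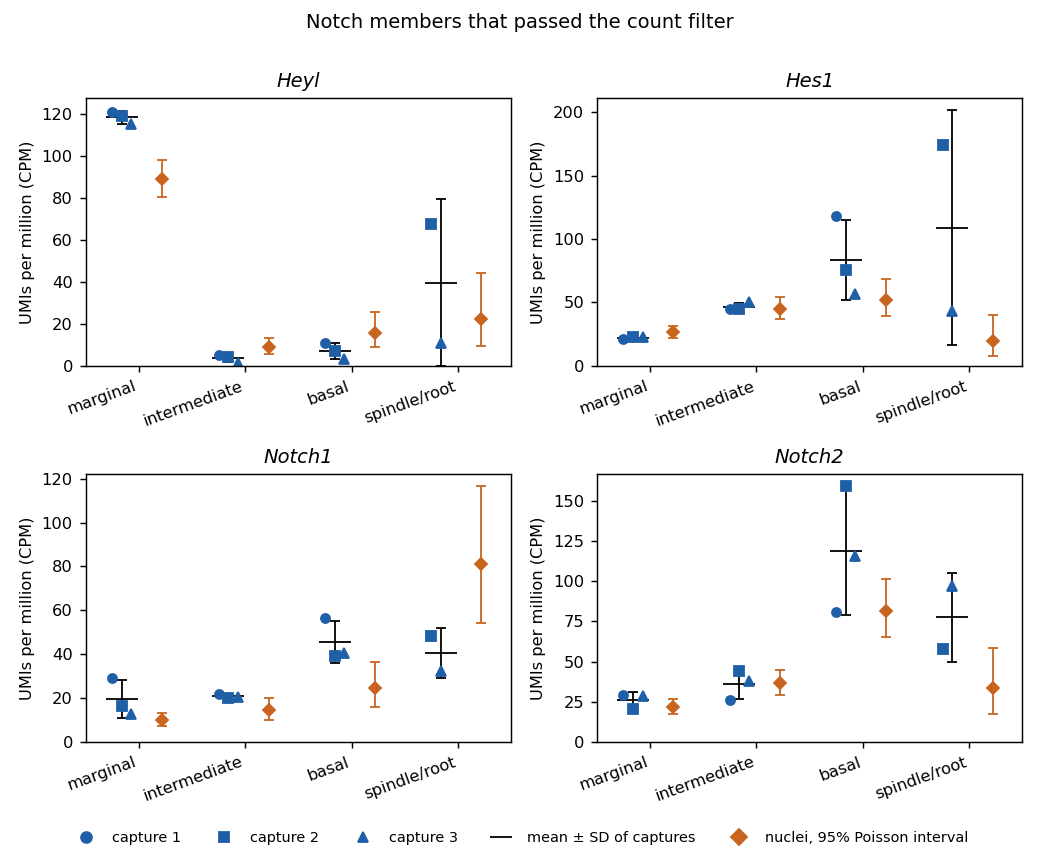
Levels of Heyl, Hes1, Notch1 and Notch2 (vertical axis, CPM) by SV type, with a point for each cell capture, a bar at the mean with the SD (lower ends stop at 0; n = 3, and n = 2 for spindle/root cells) and the nucleus capture with its 95% Poisson interval. Heyl stands at 115 to 121 CPM in marginal cells of the 3 captures and at 1.53 to 10.8 CPM in intermediate and basal cells.

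Jag1 encodes the Jagged 1 ligand and lies on chromosome 2 (mm10, chr2:137081456-137116644, minus strand). In spindle/root cells its level was 77.5 CPM in capture 2 (8 UMIs) and 10.8 CPM in capture 3 (1 UMI), a mean of 44.1 ± 47.1 CPM (SD, n = 2). In marginal cells it was 0, 6.17 and 3.20 CPM in captures 1, 2 and 3, in intermediate cells 0.872, 1.38 and 0.381 CPM, and in basal cells 0, 8.71 and 3.13 CPM. Both spindle/root sums were above every sum of the other 3 types, although the lower of them rested on 1 UMI, and the 4 spindle/root cells of capture 1, which entered no test, held 0 UMIs (95% Poisson upper bound 55.2 CPM). In nuclei Jag1 was at 53.2 CPM in spindle/root nuclei (19 UMIs, 95% Poisson interval 32.0 to 83.1) and at 2.95 to 5.02 CPM in the other 3 types, and these intervals, like all those given here, cover counting error only. Jag1 did not pass the filter. In the fit without it, 10.7% of 15486 genes were called for spindle/root cells and 17.8% for intermediate cells. There Jag1 was higher in spindle/root cells (log2 fold change 3.47, SE 0.88, edgeR adjusted p = 0.00151) and lower in intermediate cells (log2 fold change -2.70, SE 0.78, adjusted p = 0.00454). Between pairs, intermediate (-4.62, adjusted p = 7.04e-05) and marginal cells (-3.12, adjusted p = 0.0363) were below spindle/root cells. Basal cells were not called against spindle/root cells (-2.66, adjusted p = 0.0568). Intermediate cells were not called against marginal or basal cells (adjusted p = 0.510 and 0.180), so the intermediate call does not set them below those types.

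The other 2 ligands were close to undetected. Jag2, which encodes Jagged 2, lies at chr12:112907819-112929776 (minus strand). It had 0 UMIs in every sum of cells tested, where the level that 3 UMIs would give ranges from 1.03 CPM in intermediate cells of capture 2 to 32.4 CPM in spindle/root cells of capture 3. In nuclei it had 5 UMIs in marginal, 2 in intermediate and 1 in spindle/root nuclei. Dll1, the gene of Delta-like 1, lies at chr17:15367354-15376872 (minus strand) and had 1 UMI, in basal cells of capture 2, and 0 in the 4 types of nuclei. At this depth no difference between types was detectable for either gene.

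Notch2 lies at chr3:98013527-98150361 (plus strand) and encodes one of the 4 mammalian Notch receptors. It was at 80.6, 159.6 and 115.9 CPM in basal cells of captures 1, 2 and 3 (118.7 ± 39.6 CPM, n = 3). In marginal cells it was at 29.2, 20.6 and 28.8 CPM (26.2 ± 4.87), in intermediate cells at 26.2, 43.8 and 37.8 CPM (35.9 ± 8.96), and in spindle/root cells at 58.1 and 97.3 CPM (77.7 ± 27.7, n = 2). The basal range did not overlap those of marginal or intermediate cells, and it overlapped that of spindle/root cells. Notch2 was higher in basal cells than in the other types (log2 fold change 1.66, SE 0.20, edgeR adjusted p = 3.75e-11), and it was lower in marginal cells (log2 fold change -1.62, SE 0.30, adjusted p = 7.88e-06). The values for intermediate cells (log2 fold change -0.35, adjusted p = 0.186) and spindle/root cells (0.31, adjusted p = 0.621) did not pass. In nuclei the order was likewise led by basal nuclei, at 81.6 CPM (83 UMIs), with intermediate at 36.5, spindle/root at 33.6 and marginal at 21.7 CPM.

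Pairs of types were also compared, as edgeR contrasts of the same fit. Over the 4 tested genes 16 of 24 such contrasts passed. Of all genes, 32.4% were called between marginal and intermediate, 29.4% between marginal and basal, 23.3% between marginal and spindle/root, 36.0% between intermediate and basal, 30.1% between intermediate and spindle/root and 26.7% between basal and spindle/root cells. Basal cells were above marginal cells (log2 difference marginal minus basal -2.46, adjusted p = 2.03e-12), above intermediate cells (intermediate minus basal -1.51, adjusted p = 6.24e-12) and above spindle/root cells (1.01, adjusted p = 0.0330). Marginal cells were below intermediate cells (-0.95, adjusted p = 0.00598) and below spindle/root cells (-1.45, adjusted p = 0.0268), and intermediate and spindle/root cells did not differ beyond the spread between captures (-0.50, adjusted p = 0.398). Without capture 2 the pairs of marginal with intermediate (-0.54, adjusted p = 0.343), marginal with spindle/root (-1.39, adjusted p = 0.150) and basal with spindle/root cells (0.53, adjusted p = 0.538) no longer passed, nor without capture 3 did marginal with spindle/root cells (-1.04, adjusted p = 0.404). With no replicate block for capture, the value for basal with spindle/root cells was 0.85 (adjusted p = 0.115). The 4 spindle/root cells of capture 1 held 7 Notch2 UMIs, or 104.8 CPM, above the 80.6 CPM of basal cells in that capture, and with these cells let in, a setting chosen after seeing the data, this pair did not pass (0.71, adjusted p = 0.0853). Within the basal clusters Notch2 was at 185.6 CPM (109 UMIs) in a cluster of 55 cells and at 85.6 CPM (64 UMIs) in the cluster of 54 cells with intermediate markers. Within marginal cells it was at 51.6 CPM (11 UMIs) in a cluster of 31 cells and at 18.2 CPM (15 UMIs) in the cluster of 58 cells with intermediate markers. Without the clusters high in intermediate markers, a setting chosen after seeing the data, the basal call remained (log2 fold change 1.68, adjusted p = 2.43e-09). The marginal value did not pass in that setting (log2 fold change -0.77, adjusted p = 0.159), nor did the pairs of marginal with intermediate (-0.04, adjusted p = 0.959) and marginal with spindle/root cells (-0.43, adjusted p = 0.626) pass. Intermediate cells were then called lower (log2 fold change -0.72, adjusted p = 0.0186).

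Notch1, a receptor with broad roles in development, lies at chr2:26457903-26516663 (minus strand). It was at 56.4, 39.2 and 40.7 CPM in basal cells (45.4 ± 9.55, n = 3) and at 48.4 and 32.4 CPM in spindle/root cells (40.4 ± 11.3, n = 2). In intermediate cells it was at 21.8, 20.0 and 20.6 CPM (20.8 ± 0.92) and in marginal cells at 29.2, 16.5 and 12.8 CPM (19.5 ± 8.63). The basal and spindle/root sums all lay above the marginal and intermediate sums. Notch1 was higher in basal cells (log2 fold change 0.79, SE 0.29, edgeR adjusted p = 0.0317) and lower in marginal cells (-1.03, SE 0.38, adjusted p = 0.0335), while the values for intermediate cells (-0.31, adjusted p = 0.404) and spindle/root cells (0.55, adjusted p = 0.519) did not pass. Among pairs, basal cells were above marginal (marginal minus basal -1.37, adjusted p = 0.00218) and intermediate cells (intermediate minus basal -0.82, adjusted p = 0.00635), and the other 4 pairs did not pass. In nuclei the highest level was in spindle/root nuclei, at 81.2 CPM (29 UMIs, 54.4 to 116.6), then basal at 24.6, intermediate at 14.4 and marginal at 9.82 CPM. The basal call was lost when any capture was left out (0.78, 1.01 and 0.72 without capture 1, 2 and 3, adjusted p = 0.0965, 0.0681 and 0.142), and the marginal call without capture 2 (-0.85, adjusted p = 0.313) or 3 (-0.98, adjusted p = 0.137). The pair of intermediate and basal cells did not pass without capture 1 (-0.71, adjusted p = 0.0814). Both calls in cells were lost with DESeq2 (adjusted p = 0.0775 for marginal and 0.0998 for basal cells). Without the clusters high in intermediate markers Notch1 did not pass the filter: the marginal cluster of 31 cells held 1 UMI and the other marginal cluster 18.

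Notch3 lies at chr17:32120820-32166852 (minus strand) and encodes a receptor best known from vascular mural cells. Marginal cells held 3, 1 and 3 UMIs in captures 1, 2 and 3, or 12.5, 2.06 and 9.60 CPM. Intermediate, basal and spindle/root cells held 0 in every sum tested, where the level that 3 UMIs would give ranges from 1.03 to 32.4 CPM. Marginal nuclei held 59 UMIs, or 13.5 CPM (10.3 to 17.4), against 5.90 CPM in basal, 5.60 in spindle/root and 0.80 in intermediate nuclei. The basal value rests on 6 UMIs (2.16 to 12.8 CPM), and its interval overlapped the marginal one. In spindle/root nuclei 2 barcodes held a Notch3 UMI. In the fit without the filter on low counts, where 10.1% of genes were called for marginal cells, the edgeR adjusted p for marginal cells was 0.0372, and no fold is given because the other types held no UMI. Between pairs in that fit, marginal cells were called against intermediate cells (edgeR adjusted p = 0.00978). They were not called against basal (adjusted p = 0.167) or spindle/root cells (adjusted p = 0.739), so the marginal call does not set them above those types. The summed level of 7 pericyte markers in marginal cells was 179.5, 16.5 and 217.5 CPM in captures 1, 2 and 3, and Notch3 was also lowest in capture 2. The marginal cluster of 31 cells held 3 Notch3 UMIs, 1 in each capture, and 0 UMIs of all 7 pericyte markers. In marginal nuclei the pericyte markers were at 9.36 CPM, the lowest of the 4 types, with Kcnj8 and Acta2 at 0. Whether pericyte RNA contributes to Notch3 in marginal cells was not tested. Notch3 overlaps the antisense gene Gm17276, which held 648 UMIs in marginal nuclei and 2 in marginal cells. The sources used here do not give the strand setting of the counting, so reads of the 2 genes cannot be told apart with certainty.

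Heyl encodes a Hey repressor and lies at chr4:123233556-123249875 (plus strand). Its level in marginal cells was 121.1 CPM in capture 1 (29 UMIs), 119.4 CPM in capture 2 (58 UMIs) and 115.1 CPM in capture 3 (36 UMIs), a mean of 118.5 ± 3.05 CPM (n = 3). In intermediate cells it was at 5.23, 4.14 and 1.53 CPM (3.63 ± 1.90) and in basal cells at 10.8, 7.26 and 3.13 CPM (7.05 ± 3.81). In spindle/root cells it was at 67.8 and 10.8 CPM in captures 2 and 3 (39.3 ± 40.3, n = 2), and the 4 spindle/root cells of capture 1 held 10 UMIs, or 149.7 CPM. Marginal sums lay above all sums that entered the tests, and the intermediate and basal ranges overlapped. In nuclei Heyl was at 89.1 CPM in marginal nuclei (390 UMIs, 80.5 to 98.4), then at 22.4 in spindle/root, 15.7 in basal and 8.81 in intermediate nuclei.

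Heyl was higher in marginal cells than in the other types (log2 fold change 3.38, SE 0.28, edgeR adjusted p = 1.12e-17). This is 10.4-fold against the average of the other types on the log scale. The plain means were 118.5 CPM in marginal cells and 16.7 CPM over the other types. It was lower in intermediate cells (log2 fold change -2.90, SE 0.43, adjusted p = 2.54e-08) and in basal cells (-1.86, SE 0.49, adjusted p = 0.00188), and the value for spindle/root cells did not pass (1.39, SE 0.65, adjusted p = 0.110). Between pairs, marginal cells were above intermediate cells (log2 difference 4.71, adjusted p = 2.75e-23), basal cells (3.93, adjusted p = 1.71e-14) and spindle/root cells (1.49, adjusted p = 0.0250). Intermediate and basal cells did not differ beyond the spread (-0.78, adjusted p = 0.334), and both were below spindle/root cells (-3.22 and -2.44, adjusted p = 5.45e-04 and 0.0149). Without capture 2 the basal call (-1.13, adjusted p = 0.448) and both of the last pairs (-1.59 and -0.54, adjusted p = 0.585 and 0.866) were lost, and without capture 3 the pair of marginal and spindle/root cells (0.82, adjusted p = 0.411). With the 4 spindle/root cells of capture 1 let in, a setting chosen after seeing the data, Heyl was called higher in spindle/root cells (2.06, adjusted p = 4.96e-04) and the pair of marginal and spindle/root cells did not pass (0.82, adjusted p = 0.107). Heyl was also called higher in spindle/root cells with barcodes of at least 500 genes (1.68, edgeR adjusted p = 0.0230). The same held with the Notch genes among the variable genes (3.32, adjusted p = 0.00915). It was not called there without capture 1, 2 or 3 (1.49, -0.41 and 1.84, adjusted p = 0.0974, 0.890 and 0.0751). The study had named Heyl as a marginal cell gene from these libraries, so its direction in marginal cells here is not independent evidence. The study also located Heyl transcripts in marginal cells by fluorescent in situ hybridization on tissue sections. That is a separate measurement, and it was not examined here.

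Heyl was set beside the markers of other cell types within marginal cells. The cluster of 31 marginal cells, in which intermediate markers were at 446 CPM and pericyte markers had 0 UMIs, held Heyl at 104.3, 149.1 and 234.5 CPM in the 3 captures. The cluster of 58 cells with intermediate markers at 11283 CPM held it at 126.4, 112.9 and 81.8 CPM. All 10 Heyl UMIs of basal cells lay in the basal cluster of 54 cells with intermediate markers, and the other 2 basal clusters, of 55 and 14 cells, held 0. Without the clusters high in intermediate markers the marginal value was 5.49 on the log2 scale (adjusted p = 1.95e-15), basal cells held 0 Heyl UMIs and spindle/root cells were also called higher (2.85, adjusted p = 0.0285). In that setting, and when the Notch genes were allowed among the variable genes (-1.26, adjusted p = 0.973), the call for intermediate cells was lost (log2 fold change -1.23, adjusted p = 0.962). Without those clusters intermediate cells were still below marginal (marginal minus intermediate 5.04, edgeR adjusted p = 9.75e-20) and spindle/root cells (-3.06, adjusted p = 0.00146). Intermediate minus basal was 4.42 (adjusted p = 0.103). Since basal cells held 0 UMIs there, the size of any value against an average that includes them is not read. Over all marginal cells, 8 endothelial markers summed to 54.3, 2.06 and 169.5 CPM in captures 1, 2 and 3, and Heyl was between 115.1 and 121.1 CPM. Whether RNA of other cell types contributes to Heyl in marginal cells was not tested.

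A Heyl UMI was found in 15 of 18, 32 of 43 and 19 of 28 marginal cells, or 83.3%, 74.4% and 67.9%, and in 345 of 2590 marginal nuclei, or 13.3% (exact binomial 95% interval 12.0 to 14.7%). Erythroid cells, which should lack the gene, had a Heyl UMI in 0 of 14 cells of capture 2 and 0 of 86 of capture 3 at median depths of 10055 and 10230 UMIs, against 11917 and 11493 UMIs in marginal cells. In nuclei, 12 of 479 erythroid barcodes (2.51%) held one at a median of 5276 UMIs, above the 1393 UMIs of marginal nuclei. Barcodes with at least 1000 UMIs were also thinned to 1000 UMIs, and those with fewer were left out, so these shares are over the barcodes that remained. The marginal shares were then 0 of 18, 11.6% and 17.9% in cells and 8.56% in nuclei, where erythroid nuclei had 0 of 479. At equal depth the cell and nucleus intervals overlapped. Of 58 marginal nuclei with a Notch3 UMI, 10 also held a Heyl UMI (17.2%), beside 13.3% of all marginal nuclei, and of 7 marginal cells with a Notch3 UMI 6 held one, beside 66 of 89.

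Hes1, the gene of a widely used Notch effector, lies at chr16:30064384-30067796 (plus strand) and was lowest, among cells, where Heyl was highest. In marginal cells it was at 20.9, 22.6 and 22.4 CPM (21.97 ± 0.95, n = 3) and in intermediate cells at 44.5, 44.8 and 50.3 CPM (46.5 ± 3.30). It was at 118.3, 75.5 and 56.4 CPM in basal cells (83.4 ± 31.7) and at 174.3 and 43.3 CPM in spindle/root cells (109 ± 92.7, n = 2). Marginal sums lay below all others and intermediate sums below all basal sums, while the 2 spindle/root sums lay on both sides, and the 4 spindle/root cells of capture 1 held 0 UMIs (95% Poisson upper bound 55.2 CPM). Hes1 was lower in marginal cells (log2 fold change -1.93, SE 0.31, edgeR adjusted p = 7.13e-07) and higher in basal cells (0.73, SE 0.23, adjusted p = 0.0103), and it did not pass in intermediate cells (0.01, adjusted p = 0.990). For spindle/root cells the value was 1.197 (SE 0.40, adjusted p = 0.0197), but it turned to -0.33 when capture 2 was left out (adjusted p = 0.807) and to -0.42 with barcodes of at least 500 genes (adjusted p = 0.619). The basal call was lost without capture 1 (0.48, adjusted p = 0.181) and with DESeq2 (0.73, adjusted p = 0.109). With the 4 spindle/root cells of capture 1 let in, Hes1 was called in marginal cells only: the value for spindle/root cells was 0.73 (adjusted p = 0.408) and that for basal cells 0.89 (adjusted p = 0.0864).

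Between pairs, marginal cells had less Hes1 than each other type (log2 differences of -1.45, -1.996 and -2.35 to intermediate, basal and spindle/root cells, adjusted p = 7.50e-05, 6.70e-07 and 1.52e-04). Intermediate cells were below basal cells (-0.54, adjusted p = 0.0244), and the pairs of spindle/root cells with intermediate cells (-0.89, adjusted p = 0.0705) and with basal cells (-0.35, adjusted p = 0.539) did not pass. Without capture 1 the pair of intermediate and basal cells was lost (-0.26, adjusted p = 0.437), and without capture 2 that of marginal and spindle/root cells (-0.90, adjusted p = 0.545), while without capture 3 that of intermediate and spindle/root cells passed (-1.62, adjusted p = 0.00168). With the 4 spindle/root cells of capture 1 let in, the pairs of intermediate with basal (-0.55, adjusted p = 0.214) and marginal with spindle/root cells (-1.88, adjusted p = 0.0953) were both lost. Without the clusters high in intermediate markers the pair of intermediate and basal cells did not pass (-0.60, adjusted p = 0.0551). In nuclei basal nuclei were highest at 52.1 CPM, followed by intermediate at 44.9, marginal at 26.5 and spindle/root at 19.6 CPM.

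**Figure D2:**
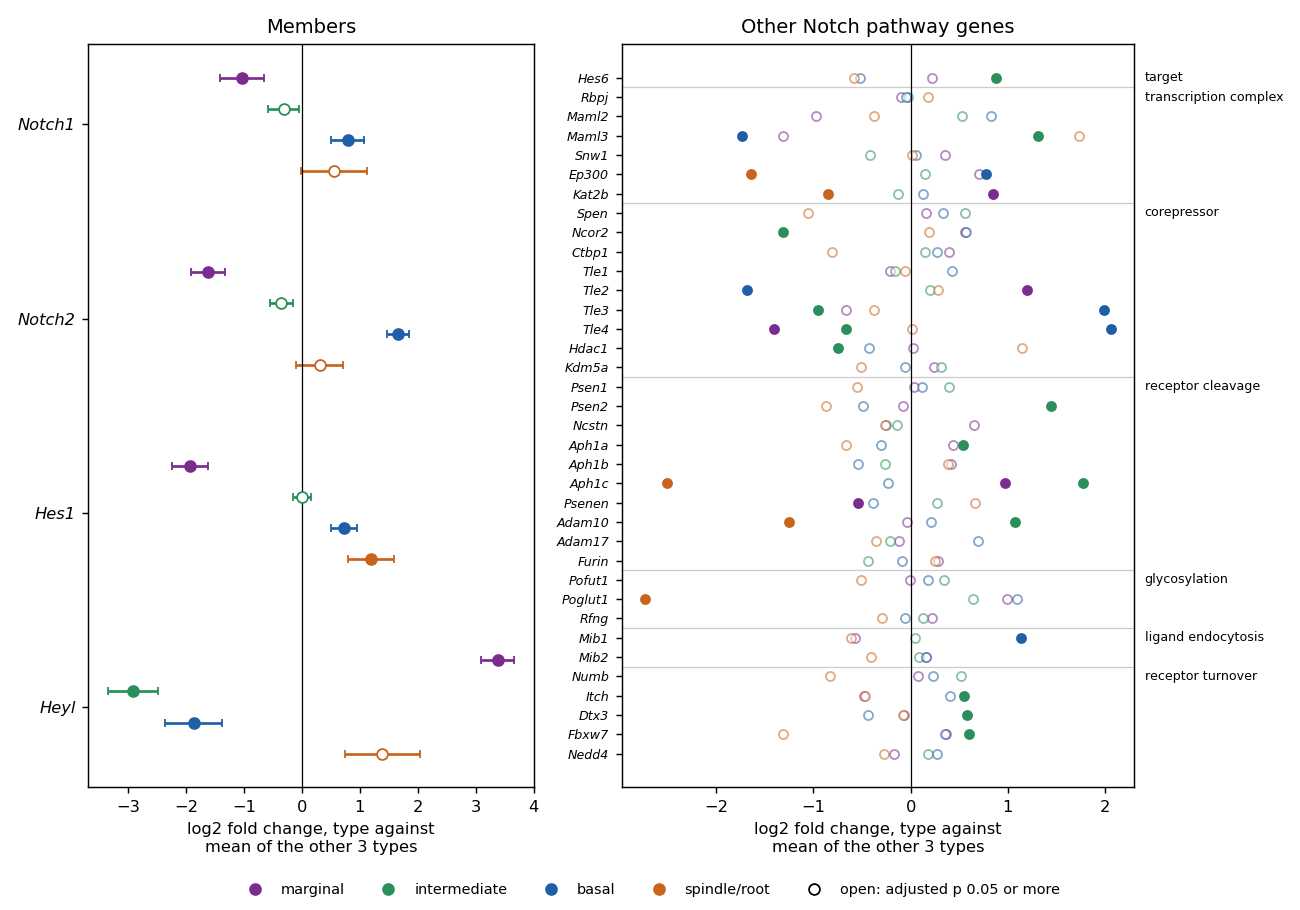
Log2 fold changes (horizontal axes), with their SE for the 4 genes that passed the filter, each type against the mean of the other 3 (left), and for the 36 other pathway genes that passed, by role (right), from the edgeR fit over 11 sums, with filled points at an adjusted p under 0.05. In marginal cells Heyl lies at 3.38 while Hes1, Notch1 and Notch2 lie at -1.93, -1.03 and -1.62.

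Hey2, which encodes a Hey repressor known from heart and vessels, lies at chr10:30832359-30842801 (minus strand). It was at 6.10, 5.86 and 3.81 CPM in intermediate cells (5.26 ± 1.26, n = 3, 34 UMIs), at 4.18, 4.12 and 3.20 CPM in marginal cells and at 5.38, 2.90 and 0 CPM in basal cells. Spindle/root cells held 38.7 CPM in capture 2 and 0 in capture 3. The ranges of marginal, intermediate and basal cells overlapped, and no type passed in the fit without the filter. In nuclei Hey2 was at 16.8 CPM in spindle/root (6 UMIs), 3.61 in intermediate and 0.23 in marginal nuclei. A promoter sequence from RefSeq (GRCm38.p6) was at hand for 7 of the 10 genes, not for Heyl, Hey1 or Hes1. The core of the RBPJ motif, TGGGAA on either strand, was searched in the 250 bases before each start. It was found for Hey2 and for none of the other 6 genes, and 21.6% of 32851 mouse promoter windows hold it. The E-box CACGTG was found in none of the 7, against 6.02% of the windows. The Hey2 window (chr10:30842784-30843033, minus strand) is shown because it carries the match, in capitals as the reverse complement, with its first base 207 bases before the start.
Hey2 promoter: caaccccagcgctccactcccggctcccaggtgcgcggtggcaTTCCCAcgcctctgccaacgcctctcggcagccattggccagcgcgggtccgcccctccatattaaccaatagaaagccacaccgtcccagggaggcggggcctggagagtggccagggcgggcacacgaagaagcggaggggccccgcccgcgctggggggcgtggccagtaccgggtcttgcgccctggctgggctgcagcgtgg

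Hey1, a further Hey repressor, lies at chr3:8663359-8667256 (minus strand). In spindle/root cells it held 5 UMIs in capture 2 (48.4 CPM), 0 in capture 3 and 3 in the 4 cells of capture 1. In marginal, intermediate and basal cells it held at most 2 UMIs in any sum. In the fit without the filter on low counts the edgeR adjusted p for spindle/root cells was 0.0232, and that value rests on the 5 UMIs of capture 2. Spindle/root nuclei held 1 UMI.

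**Figure D3:**
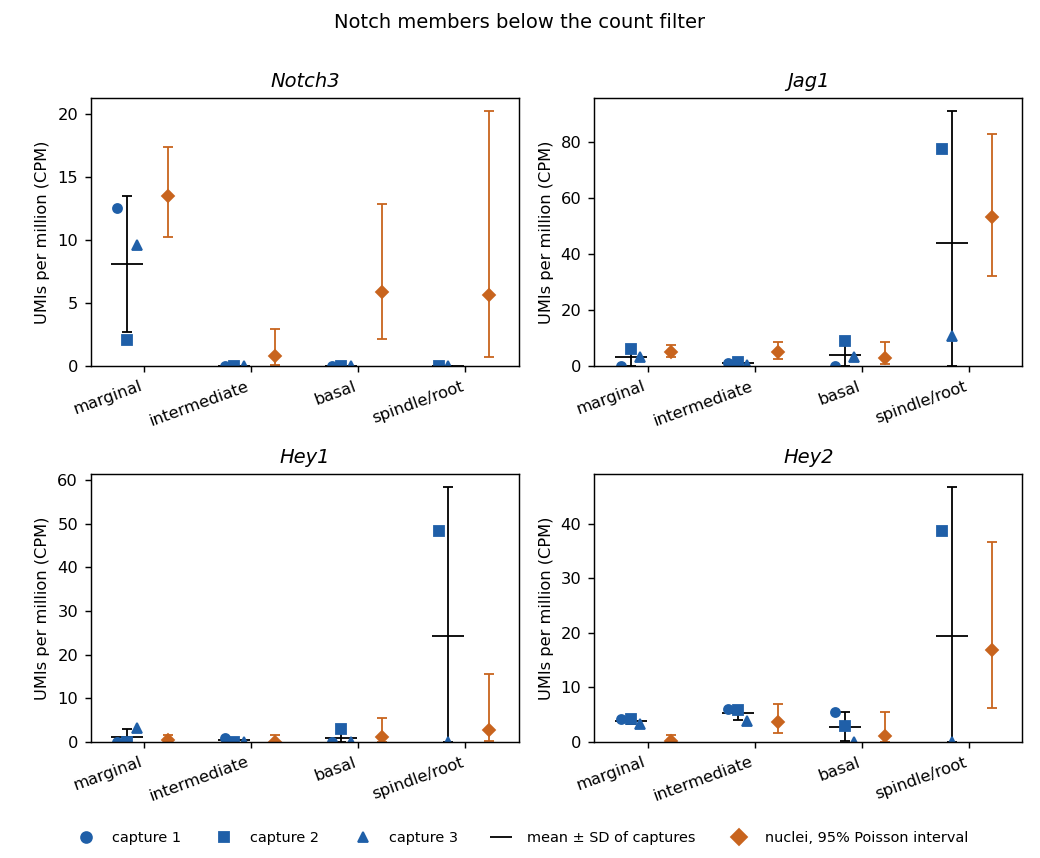
Levels of Notch3, Jag1, Hey1 and Hey2, which were below the count filter (vertical axis, CPM), by SV type, with a point for each cell capture, the mean with the SD (lower ends stop at 0) and the nucleus capture with its 95% Poisson interval. Jag1 and Hey1 have their highest points in spindle/root cells, at 77.5 and 48.4 CPM in capture 2, and Notch3 has UMIs in marginal cells and in nuclei.

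Spindle and root cells fell into more than 1 cluster, and the levels of the Notch genes in each are described. The study joins spindle and root cells under one name, and 2 clusters in cells and 2 in nuclei were found: one pair high in Epyc and one pair high in Anxa1. Epyc was at 4759 CPM in 18 cells and 2537 CPM in 109 nuclei of the first pair, and Anxa1 at 9489 CPM in 12 cells and 3087 CPM in 96 nuclei of the second. The clusters were made from these cells, so the values are a description with no test. Jag1 held 8 UMIs in the Epyc-high cells, all of them in the 10 cells of capture 2, against 1 in the Anxa1-high cells, which was in capture 3. The Epyc-high cells of captures 1 and 3, 2 and 6 cells, held 0. In nuclei Jag1 held 18 against 1 UMIs, or 90.6 against 6.31 CPM. Hes1 held 21 against 1 UMI in cells and 7 against 0 in nuclei. Of the 21, 18 were in capture 2 and 3 in capture 3. Hey1 held 8 against 0 UMIs in cells, 3 in capture 1 and 5 in capture 2, and 1 against 0 in nuclei. Notch1 held 7 against 5 UMIs in cells and 21 against 8 in nuclei, or 105.7 against 50.5 CPM. Notch2 went the other way in cells, with 58.8 CPM in Epyc-high and 104.6 CPM in Anxa1-high cells, and stood at 5 against 7 UMIs in nuclei. Heyl was at 109.1 against 34.9 CPM in cells (13 and 5 UMIs) and at 6 against 2 UMIs in nuclei. The share of each cluster differed between captures: capture 2 held 10 Epyc-high and 4 Anxa1-high cells, and capture 3 held 6 of each. Within Epyc-high cells of capture 2, Jag1 was at 136.7, Hes1 at 307.5, Hey1 at 85.4 and Heyl at 102.5 CPM. In the same order, the 6 cells of capture 3, with 23829 UMIs, held 0, 125.9, 0 and 0 CPM. The 2 cells of capture 1 held 0, 0, 81.6 and 190.4 CPM. In nuclei the 95% Poisson intervals of the Epyc-high and Anxa1-high clusters lay apart for Jag1. They overlapped for Hes1, Hey1, Notch1, Notch2 and Heyl. In so few UMIs a count of 0 does not show a lower level, and these differences were not tested.

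**Figure D4:**
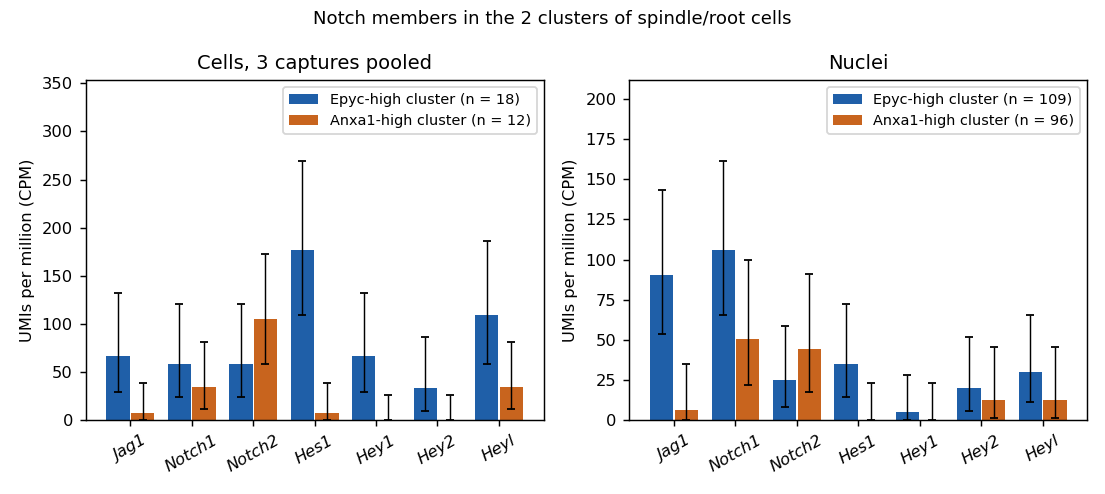
Levels (CPM) of the Notch genes in the Epyc-high and Anxa1-high clusters of spindle/root cells (left) and nuclei (right), with 95% Poisson intervals. Jag1 and Hes1 have their higher points in the Epyc-high cluster in both panels, at 67.2 against 6.97 CPM and 176.3 against 6.97 CPM in cells, where all 8 Jag1 UMIs and 18 of the 21 Hes1 UMIs of the Epyc-high cluster are from capture 2. In nuclei the Hes1 intervals of the clusters overlap.

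The genes most like each tested member were found by Pearson's r of log2(CPM + 1) over the 11 sums after the mean of each capture was removed, and the same r over the 4 types of nuclei is set beside it. The sums share captures and clusters, so r describes these libraries only. Heyl was most like Slc12a7, a potassium-chloride cotransporter (r = 0.983 in cells and 0.964 in nuclei), Tspan1, a tetraspanin (0.983 and 0.963), and Igf1, a growth factor (0.981 and 0.968). Esrrb, the nuclear receptor whose regulon the study placed Heyl in, had r of 0.893 and 0.892, and the regulon genes Abcg1 and Atp13a5 had 0.951 and 0.951, and 0.975 and 0.859. Esrrb was at 451 ± 14.5 CPM in marginal cells (n = 3) against 17.3 in intermediate, 43.8 in basal and 47.0 CPM in spindle/root cells, and at 1282 CPM in marginal nuclei. Atp13a5 was among the markers used to name marginal clusters, so its level there is not a result. For Hes1 the most similar genes were Alg14 (0.989 and 0.20), Tuba1b (0.959 and 0.0031) and Snrpf (0.904 and -0.76). For Notch1 they were Ubxn1 (0.967 and -0.19), Zmym4 (0.964 and 0.881) and Eid1 (0.961 and 0.244). For Notch2 they were Mtmr12 (0.948 and 0.374), Abi1 (0.946 and 0.584) and A630077J23Rik (0.940), which was not measured in nuclei.

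A list of 56 other pathway genes was read in the same fit, and 36 of them passed the filter. In marginal cells 3 were higher and 2 lower (13.9% called, beside 24.6% of all genes), in intermediate cells 9 were higher and 4 lower (36.1%, beside 36.0%), in basal cells 4 were higher and 2 lower (16.7%, beside 28.0%), and in spindle/root cells 0 were higher and 5 lower (13.9%, beside 25.0%). At an unadjusted p under 0.05 the edgeR count of higher genes in spindle/root cells was 3, and DESeq2 also gave 3, with none after adjustment. The median log2 fold change of the 36 was 0.11, 0.19, 0.15 and -0.40 in these types, beside 0.07, 0.02, 0.03 and -0.09 over all genes. None of the 4 other ligands passed: Dll3, Dll4, Dlk1 and Dlk2 held 1, 3, 0 and 1 UMIs in the sums. Notch4 did not pass either, with 33 UMIs, nor did the target genes Hes2, Hes3, Hes5, Hes7 and Nrarp, with 0 to 10 UMIs.

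Of the genes that carry the signal, Rbpj, the DNA-binding partner of the receptor domain, passed the filter and was not called in any type. Among corepressors, which act with Hes and Hey proteins, Tle4 was higher in basal cells (log2 fold change 2.06, edgeR adjusted p = 9.04e-18) and so was Tle3 (2.00, adjusted p = 6.90e-08), while Tle2 was lower there (-1.68, adjusted p = 0.00488), a call lost without capture 2 (-1.48, adjusted p = 0.118). Tle4 held 69, 126 and 59 UMIs in basal cells of captures 1, 2 and 3 beside 8, 14 and 12 in marginal cells. In nuclei Tle4 was at 258.5 CPM in basal against 56.0 CPM in marginal nuclei. Tle2 was not lowest in basal nuclei, at 38.3 CPM beside 31.3 in intermediate, 28.0 in spindle/root and 100.3 CPM in marginal nuclei. Mib1, a ubiquitin ligase that drives ligand endocytosis, was also higher in basal cells (1.14, adjusted p = 7.43e-06). Of the 6 genes of the transcription complex that passed, Kat2b, an acetyltransferase, was higher in marginal cells (0.85, adjusted p = 6.99e-06). That value turned to -0.52 (adjusted p = 0.242) without the clusters high in intermediate markers. In nuclei Kat2b was highest in marginal nuclei, at 282.3 CPM (266.8 to 298.5). It was at 209.4 CPM in basal, 173.6 in spindle/root and 168.3 CPM in intermediate nuclei. Maml3, a Mastermind coactivator, was lower in basal cells (-1.74, adjusted p = 0.0106), and the acetyltransferase gene Ep300 was lower in spindle/root cells (-1.64, adjusted p = 0.0361).

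The 10 genes of receptor cleavage all passed the filter. Psen2, a catalytic subunit of gamma-secretase, was higher in intermediate cells (log2 fold change 1.44, edgeR adjusted p = 3.47e-11). Aph1c, a further subunit, and the protease gene Adam10 were lower in spindle/root cells (-2.51, adjusted p = 0.00593, and -1.25, adjusted p = 0.0137), where Aph1c held 1 UMI in each of the 2 sums. Adam10 held 2 UMIs (19.4 CPM) in capture 2 and 9 (97.3 CPM) in capture 3, and the 4 cells of capture 1 held 9 (134.7 CPM). In nuclei Adam10 was not lowest in spindle/root nuclei, at 243.6 CPM beside 121.9 in basal, 109.4 in marginal and 307.7 CPM in intermediate nuclei, while Aph1c was lowest there, at 30.8 CPM. With the 4 cells of capture 1 let in, the Adam10 value for spindle/root cells did not pass (-0.70, adjusted p = 0.113). Aph1c and Adam10 were also higher in intermediate cells (1.77, edgeR adjusted p = 1.57e-09, and 1.08, adjusted p = 4.29e-08). Both of these calls were kept without the clusters high in intermediate markers (2.43 and 1.60). Aph1c was also highest in intermediate nuclei, at 181.1 CPM. Hes6, a Hes-related gene, was higher in intermediate cells (0.88, adjusted p = 0.0170), as was Dtx3, a Deltex ubiquitin ligase (0.58, adjusted p = 0.00250). Neither was highest in intermediate nuclei. Hes6 was at 36.1 CPM there and 37.9 CPM in marginal nuclei, and Dtx3 at 160.3 and 254.2 CPM. Poglut1, which glycosylates Notch receptors, was lower in spindle/root cells (-2.73, adjusted p = 0.0371), with 0 and 1 UMIs there. In nuclei Poglut1 and Ep300 were at 19.6 and 86.8 CPM in spindle/root nuclei, within the 14.4 to 25.6 and 85.7 to 106.2 CPM of the other types, and Maml3 was at 56.0 CPM in basal nuclei, above the 15.3 CPM of marginal nuclei. When 1 capture was left out, the calls of Hes6, Poglut1, Dtx3, Maml3 and Ep300 were each lost at least once. Their adjusted p rose up to 0.230, 0.348, 0.175, 0.124 and 0.466. The calls of Aph1c and Adam10 in spindle/root cells were also lost, with adjusted p up to 0.130 and 0.387. The named calls of Psen2, Kat2b, Tle4, Tle3 and Mib1 passed each time. Without the clusters high in intermediate markers, the calls of Dtx3 in intermediate cells (0.35, adjusted p = 0.178) and of Adam10 (-0.82, adjusted p = 0.175) and Aph1c (-1.93, adjusted p = 0.0912) in spindle/root cells were also lost. Tle2, Hes6, Poglut1, Ep300 and Maml3 were below the filter in that setting. All tested values of spindle/root cells rest on 26 cells of 2 captures.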

How the data were processed

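SV from CBA/J mice at P30 was measured in 3 captures of cells and 1 of nuclei. Per the labels and files, the authors' values are whole UMI counts of genes in barcodes, not normalised, made with Cell Ranger 2.0.0 on mm10 per the submitters' processing notes. The annotation, strand setting and treatment of intronic reads were not given in the sources used here. The 10 genes and the lists were chosen with earlier results of these data known.

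Barcodes with at least 200 genes were kept, and the highest doublet scores were removed at 0.8% per 1000 barcodes. Cells and nuclei were clustered apart in Seurat 5.3.0, with a first round after the study's methods (2000 variable genes, 41 principal components each, resolution 0.8), without the Notch genes. Some clusters were split further in a second round, which used 10 principal components. In cells, that round gave every marginal and basal cluster and the Anxa1-high spindle/root cluster of 12 cells. The marginal clusters and this Anxa1-high cluster were parts of the same first-round cluster. In nuclei, the clusters of the SV types came from the first round. A cluster was named when at least 3 markers were raised (in 10% of its barcodes and 2-fold) and no second class scored above 0.67 of the first. Samples were grouped by capture as the labels give it.

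UMIs were summed per capture and type (at least 5 cells) and tested in edgeR 4.0.16 (TMM, filterByExpr, robust quasi-likelihood fit) in R 4.3.3, with capture as a replicate block, each type against the other 3 and in 6 pairs. The captures pair the sums because each capture is 1 suspension. Deviations of same-capture sums correlated at 0.0226 to 0.320 over 2482 genes. The fit was also run on simulated data, whose results are not given here, so no error rate is claimed. Nuclei form 1 library, so CPM have exact Poisson intervals and no test. Depth was 2811309 to 8340882 UMIs per cell capture and 22332501 in nuclei, and low counts limit most of the 10 genes. Alternatives included DESeq2 1.42.0, no TMM scaling, no filter, other clustering, no replicate block and each capture left out. The 3 settings on sums of at least 3 cells, on naming and on clusters high in intermediate markers were chosen after seeing the data.

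Named genes are the 10 members, up to 3 pathway genes per role ranked by absolute log2 fold change if called and of one sign in every capture, the 3 genes most like each tested member, and Esrrb, Abcg1 and Atp13a5. Examples of genes that did not pass the filter were added to account for the list. Positions are from GENCODE M21 (GRCm38).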

Additional observations from a re-analysis of the deposited data

Results flagged for a closer look

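For 2 genes a difference between types had one sign in the nucleus capture and the opposite sign in both cell captures that held enough spindle/root cells. The log2 ratio of Hes1 in marginal over spindle/root barcodes was 0.42 in nuclei and -2.89 to -0.92 in cells. The log2 ratio of Notch2 in intermediate over spindle/root barcodes was 0.11 in nuclei and -1.34 to -0.40 in cells. Neither difference between cells and nuclei was tested, and in nuclei the counting intervals of the types overlapped for both genes.

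UMIs of the Notch genes were also present in barcodes that received no type name, 1747 cells and 3793 nuclei, which no comparison of the reported fit used. Heyl held 139 UMIs in unnamed cells (18.2 CPM) and 155 in unnamed nuclei (24.3 CPM). Of those in cells, 55 lay in a cluster of 48 cells at 108.9 CPM and 65 in another cluster at 26.5 CPM. The cluster of 48 cells was named marginal under the alternative naming, chosen after seeing the data, which gave 137 marginal cells in place of 89. Notch2 held 163 and 74 UMIs in unnamed cells and nuclei, Hes1 114 and 90, and Notch1 49 and 52. Jag1 held 16 and 22, and Hey2 held 21 and 9. Hey1 and Notch3 were above the limit of a count of 0 in unnamed nuclei, with 11 and 7 UMIs.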

How the results depend on the processing

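Spindle/root values rest on 2 sums of 14 and 12 cells, marginal values on sums of 18 to 43 cells, and nuclei on 1 library, so small differences were not detectable. Causes of the changes below were not tested. The share of all genes called is given only for the reported fit and for the fit with no filter. Under the other settings a moved count cannot be told from a shift over all genes.

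The direction of Heyl in marginal cells and of Notch2 in basal cells, and both calls, were kept under each alternative run. With no replicate block, for which the pairing of sums by capture is dropped, the counts of the 10 genes called were 4, 1, 4 and 1 in marginal, intermediate, basal and spindle/root cells, as with the block, and 15 of 24 pairs were called in place of 16. The block changed the call of Notch2 between basal and spindle/root cells among the 4 tested genes.

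The number called in marginal cells was 2 of 3 tested without the clusters high in intermediate markers. In intermediate cells it was 0 with the Notch genes among the variable genes (0 also unadjusted). It was 2 with barcodes of at least 500 genes and 3 with no TMM scaling. With no filter it was 2 of 9 tested, where 17.8% of all genes were called. In basal cells it was 2 with DESeq2. In spindle/root cells it was 0 with no doublets removed, at resolution 0.4 and with 20 principal components. At an unadjusted p under 0.05 these counts were 2, 1 and 2. It was 2 with the Notch genes among the variable genes and 2 of 3 tested without the clusters high in intermediate markers. With no filter it was 2 of 9 tested, where 10.7% of all genes were called. Those 2 were Jag1 and Hey1, while Hes1 did not pass (0.99, edgeR adjusted p = 0.0642). Leaving out 1 capture gave 1 to 2 in intermediate, 2 to 3 in basal and 0 to 2 in spindle/root cells, and 10 to 15 pairs. Without capture 3, 6 genes were tested.

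Of the other pathway genes 36 were tested in the reported fit, and some settings tested fewer or more. The count in marginal cells was 8 of 36 with no doublets removed, 3 of 36 with DESeq2 and 10 of 35 without spindle/root cells. In intermediate cells it was 8 of 29 with the Notch genes among the variable genes and 7 of 36 with DESeq2. It was 7 of 14 there without the clusters high in intermediate markers, beside 13 of 36 in the reported fit. In basal cells it was 11 of 35 without spindle/root cells and 10 of 34 with at least 3 cells per sum. In spindle/root cells it was 2 of 36 with no doublets removed and 1 of 29 with the Notch genes among the variable genes. It was 3 of 35 with barcodes of at least 500 genes, 3 of 36 with no TMM scaling and 8 of 34 with at least 3 cells per sum. It was 0 of 36 with DESeq2 (7 at an unadjusted p under 0.05). Without the clusters high in intermediate markers it was 0 of 14 (1 at an unadjusted p under 0.05). Leaving out 1 capture gave 3 to 5 in marginal, 5 to 10 in intermediate and 1 to 5 in spindle/root cells, with 33 to 37 tested.

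Values reversed in 6 cases. Hes1 in spindle/root cells was 1.197 in the reported fit, -0.42 with barcodes of at least 500 genes and -0.33 to 1.81 when 1 capture was left out, the lowest without capture 2. Without the clusters high in intermediate markers, Kat2b was -0.52 in marginal and 0.59 in intermediate cells, and Dtx3 was 0.80 in marginal cells. Ep300 in intermediate cells was -0.45 without spindle/root cells. The share of marginal barcodes with a Heyl UMI was 83.3%, 74.4%, 67.9% and 13.3% with no thinning in the 3 cell captures and nuclei. Thinned to 500 UMIs, among barcodes with at least 500 UMIs, it was 3.57% in capture 3 and 4.09% in nuclei.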

Other observations

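Outside the 4 SV types, the Notch genes were read in the other named nuclei, with no test since they form 1 library. Notch2 was at 142.1 CPM in 88 macrophage nuclei (40 UMIs, 95% Poisson interval 101.5 to 193.5), at 133.3 CPM in 112 fibrocyte nuclei (29 UMIs, 89.3 to 191.5) and at 99.4 CPM in 98 Reissner's membrane nuclei (14 UMIs, 54.3 to 166.7), beside 81.6 CPM in basal nuclei. Of the 29 Notch2 UMIs of fibrocyte nuclei, 28 lay in 1 cluster of 49 nuclei (268.0 CPM). The fibrocyte clusters of 38 and 25 nuclei held 0 and 1. Hes1 was at 124.1 CPM in fibrocyte nuclei (27 UMIs, 81.8 to 180.6) and at 82.0 CPM in B cell nuclei (35 UMIs), beside 52.1 CPM in basal nuclei. Hes1 in B cells of capture 3 was at 85.8 CPM. Heyl held 3 UMIs in fibrocyte and 4 in Reissner's membrane nuclei.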
